A study of Mus musculus with 12 samples.

Results

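The mitochondrial ribosomal protein genes were taken as every transcript on the array whose annotated symbol starts with Mrpl or Mrps followed by a digit. They came to 132 probes of 76 genes, out of 45135 probes and 19031 named genes on the array, and fell into 48 large subunit genes (Mrpl, 83 probes) and 28 small subunit genes (Mrps, 49 probes). The rule used names only and no measured value. Illumina mouse whole-genome BeadChips were hybridised with RNA of hippocampal vibratome sections from 6 TIF-IA CaMKCreERT2 mutants and 5 control littermates, all on a C57Bl/6N background, 4 weeks after tamoxifen. Both alleles of Rrn3, the gene of an initiation factor (TIF-IA) for rRNA gene transcription by RNA polymerase I, are floxed in the mutants, and a tamoxifen-inducible Cre recombinase is driven by the Camk2a promoter, which is active in excitatory forebrain neurons. By the study's methods the controls carry 2 floxed alleles and no Cre, whereas the sample labels call them wildtype. Mutants and controls alike received 1 mg of tamoxifen 2 times a day for 5 days at 2 months of age. Age at injection and time of sampling were thus the same for both. In RNA of whole tissue, which also holds glia, interneurons and other cells that keep Rrn3, fewer cells of a type and less RNA per cell cannot be told apart.

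Mitochondria have their own ribosome, built from rRNAs of the mitochondrial genome and from proteins that are encoded in the nucleus, made in the cytosol and imported. It translates only the few mRNAs of the mitochondrial genome, which encode core subunits of the respiratory chain complexes and of ATP synthase. Some of its proteins have bacterial homologs and others are particular to mitochondria. Its rRNAs are transcribed by the mitochondrial RNA polymerase Polrmt and not by RNA polymerase I, so TIF-IA acts on the cytosolic ribosome and not directly on this one. Neurons depend on this ribosome for the oxidative phosphorylation that supports synaptic activity.

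Rrn3 was measured first as a check of the labels. Its detected probe (ILMN_2729771) read 8.37, 8.39, 8.25, 8.35 and 8.55 in the controls and from 7.71 to 7.99 (median 7.85) in the mutants, in log2 units of normalized signal. Every mutant lay below every control, and the log2 fold change was -0.55 (SE 0.07). In limma its unadjusted p was 6.7e-06 and its adjusted p 0.15, so this probe too missed an adjusted p under 0.05. A second Rrn3 probe was not above background in any animal, and where the probes lie relative to the floxed exon is not given in the sources used here. Median signals per array ranged from 83.1 to 108 and the number of probes detected at a p-value under 0.01 from 19193 to 21889. Markers of pyramidal and granule cells were present in every group, with 3 of 10 dentate gyrus markers and 1 of 7 CA1 markers at background. Markers of neighbouring tissue varied between animals more than between the groups. The mean of 9 choroid plexus genes ran, in log2 units around each gene's own mean, from -1.95 to 2.29 (mutants) and from -1.82 to 2.02 (controls), and 9 of 9 had a positive fold change (median 0.79). Of 11 oligodendrocyte genes 10 had a positive fold change (median 0.26) and of 10 dentate gyrus genes 9 had a negative one (median -0.16). Negative values were also held by 5 of 7 CA1 genes (median -0.15), 5 of 7 CA3 genes (median -0.13) and 8 of 12 thalamus genes (median -0.14). The same held for 8 of 9 astrocyte genes (median -0.09) and 7 of 9 microglia genes (median -0.07). Positive values were held by 7 of 9 interneuron genes (median 0.16). The summed signal of the choroid plexus genes ranged from 1064 to 33493 (mutants) and from 1321 to 30477 (controls), and that of the oligodendrocyte genes from 30109 to 72461 and from 27129 to 55631. Their part in the differences given below was not tested beyond leaving out the animals richest in thalamus markers.

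The hippocampus expressed nearly the whole set. Of the 132 member probes 105 were detected in all 11 animals, 16 were not well above background in either group and 4 in one group only. A probe counted as detected in an animal at a detection p-value under 0.01, and a gene as above background when its brightest probe was detected in at least 5 of the 11 animals. This held for 72 of the 76 genes. The 4 without it were Mrpl19, Mrpl32, Mrpl45 and Mrps14. Each was read by a dim probe, so their low signal does not show that the gene is silent.

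Differences between the genotypes were small and none passed correction for multiple testing. No member probe reached an adjusted p under 0.05 in limma over all probes (0 of 132, smallest adjusted p = 0.996), against 1 probe (0.00222%) on the whole array, and none passed the limit used by the study, an unadjusted p under 0.001, against 38 probes (0.0842%). At an unadjusted p under 0.05 there were 6 member probes (4.55%) higher in the mutants and 2 (1.52%) lower. Over all probes 1.94% were higher and 2.01% lower at that threshold. Many probes on the array are dark, so the counts were repeated for the 20678 probes with detection in at least 5 animals, of which 2.67% were higher and 2.59% lower, while among the 110 such member probes 5.45% were higher and 1.82% lower. No member had every mutant above or every mutant below every control, which was seen for 0.175% and 0.157% of all probes. These counts depended on single animals. Without control 5 the number of higher probes was 17, without mutant 3 it was 12 and without mutant 4 it was 10. The number of lower probes was 4 without control 1, 4 without control 3, 5 without mutant 1 and 4 without mutant 5. Without mutant 3, 1 member probe, that of Mrpl47, passed an unadjusted p of 0.001.

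The direction of the small differences was shared by most genes. With each gene represented by its brightest probe, 60 of the 76 genes had a positive log2 fold change, mutant minus control, and the median was 0.08, which corresponds to 5.92% more signal. In the large subunit 39 of 48 genes (81.2%) were positive with a median of 0.08 and quartiles of 0.02 and 0.16. In the small subunit 21 of 28 genes (75%) were positive with a median of 0.09 and quartiles of 0.01 and 0.17. Mrps10 is counted there at its brightest probe (0.66), while another of its detected probes gave -0.30. Among all named genes 51.8% were positive with a median of 0.01, and among those above background 53.3% with a median of 0.01. The genes of a set share animals and rise and fall together between them, so these counts are a description and carry no p-value. Of the 72 genes above background 37 had a log2 fold change under 0.1 in either direction and 3 had one over 0.3. Their standard errors ranged from 0.06 to 0.29 (median 0.11), and for 62 of the 72 the 95% interval of the difference lay within 0.5 on either side of 0. The plot of all genes of both subunits shows this drift to the right of 0 with few genes standing clear of it.

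**Figure D1:**
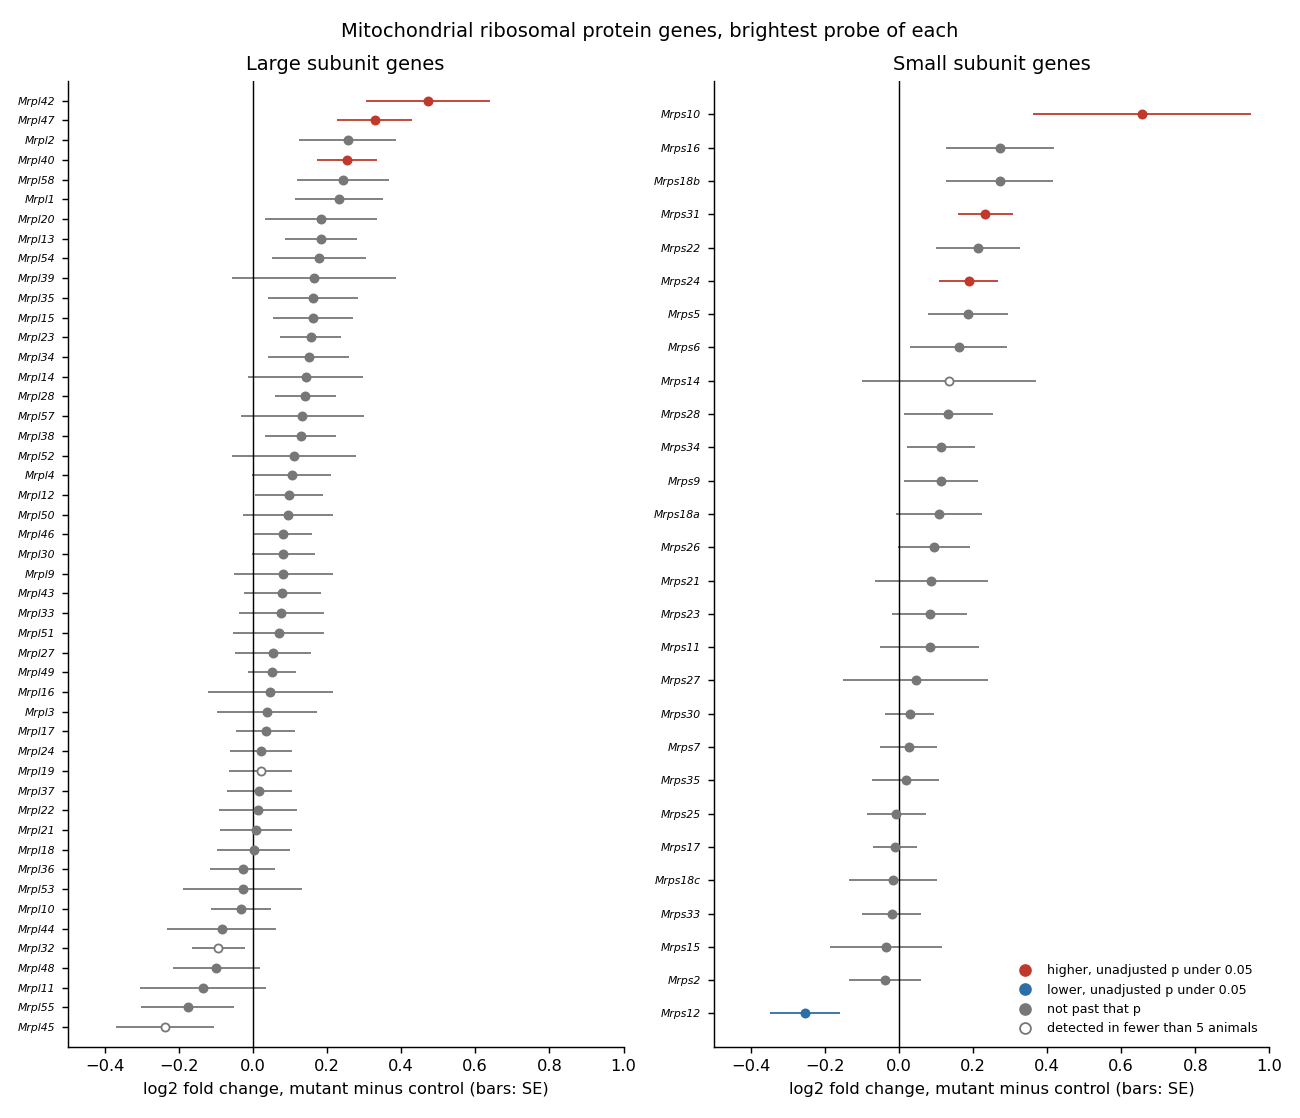
Log2 fold change (mutant minus control, x axis) of the 48 large and 28 small subunit genes at their brightest probe, ordered by value, with bars of 1 standard error. Red and blue points passed an unadjusted p of 0.05, and open points were detected in fewer than 5 animals. Most points lie to the right of 0, and Mrps12 is the only one past that p to the left.

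To see how the shift was spread over the animals, the deviations of the genes from their own means were averaged within each animal. For the large subunit these means were 0.04, -0.15, -0.11, -0.11 and 0.10 in controls 1 to 5, and ran from -0.11 to 0.22 (median 0.02) in the mutants. Mutants 5 (0.22) and 1 (0.16) were the highest and control 5 was next, while mutants 3 and 4 lay among the low controls, so the groups overlapped. For the small subunit the control means were 0.01, -0.19, -0.08, -0.16 and 0.13, and the mutants ran from -0.11 to 0.24 (median 0.03). The order of the animals was much the same, with mutant 5 highest, mutant 1 and control 5 at 0.13 and control 2 lowest. In mutant 5, 42 of 48 large and 24 of 28 small subunit genes lay above their mean over the animals, and in control 2 only 9 and 4 did. The group means differed by 0.08 for the large subunit (SD 0.13 for mutants, 0.11 for controls) and by 0.10 for the small subunit (SD 0.12 and 0.13), less than the spread between animals of one genotype.

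**Figure D2:**
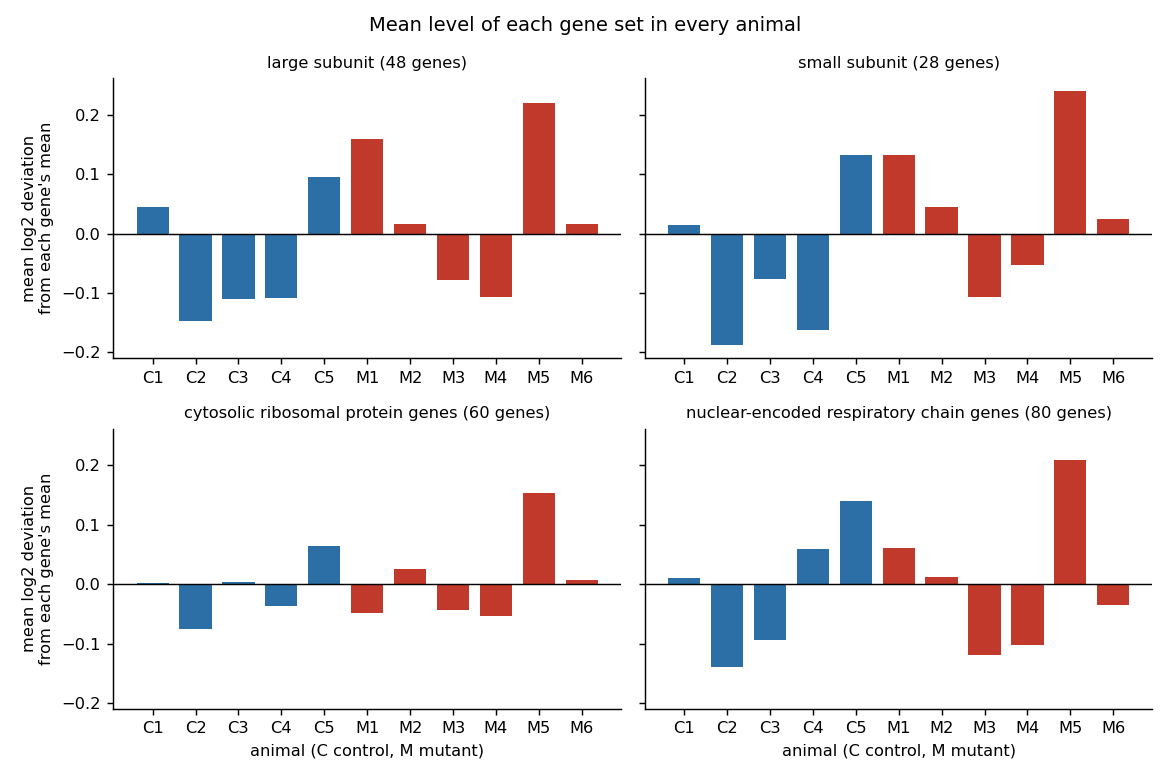
Mean log2 deviation from each gene's own mean (y axis) in the 5 controls (blue) and 6 mutants (red) for large subunit, small subunit, cytosolic ribosomal protein and nuclear-encoded respiratory chain genes, 1 bar an animal. Mutant 5 is the highest animal in all 4 panels and control 2 the lowest, and both genotypes have bars above and below 0.

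Both medians were positive whichever animal was left out, but their size was not stable. They ranged from 0.05 to 0.11 for the large and from 0.05 to 0.13 for the small subunit, lowest without mutant 5 and highest without control 5, and the number of positive genes ranged from 49 to 66 of 76. In the labels the animal numbers start with 2 (3 mutants, 4 controls) or with 3 (3 mutants, 1 control), and what this numbering stands for is not given in the sources used here. Among the animals whose numbers start with 2 the medians were 0.09 and 0.13 for the large and the small subunit. Among those starting with 3, where control 5 was the only control, they were -0.07 and -0.04. Without control 4, mutant 2 and mutant 4, the animals with the most thalamus signal, the medians were 0.10 and 0.08, with 6 probes higher and 3 lower. Mutant 1, the highest in choroid plexus markers (2.29), stayed in, so animals rich in choroid plexus were not all left out.

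Members of one subunit tended to move together between animals of the same genotype. The median correlation between pairs of genes within the groups was 0.40 for the large and 0.47 for the small subunit, and 81.3% and 87.3% of the pairs were positive. These values share their arrays and are given as a description. No such correlation was computed between the subunits or for other genes, so it is not shown to be particular to either subunit. In the means per animal, cytosolic ribosomal protein and respiratory chain genes also had mutant 5 highest and control 2 lowest. The 2 arrays of mutant 6, which were hybridised with RNA of the same animal, gave a within-animal SD of 0.14 for either subunit. This SD of a single array is a root mean square over genes. The SD between animals of one genotype was 0.19 and 0.18 as a median over genes, so the measures are not directly comparable.

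The largest decrease was that of Mrps12, the small subunit protein at the decoding centre, whose bacterial homolog S12 guards the accuracy of decoding and is a target of streptomycin resistance mutations. Its probe ILMN_1254734 read 11.96, 12.09, 11.75, 11.56 and 11.997 in the controls and from 11.04 to 11.82 (median 11.44) in the mutants. Below the lowest control lay 5 mutants, and mutant 3 overlapped the controls. Mutants differed from controls by a log2 fold change of -0.47 (SE 0.14), a change of -27.6% in signal, with an unadjusted p of 0.0075 in limma and 0.017 in the exact two-sided permutation test. The second probe, ILMN_2777706, read 11.93, 11.79, 11.80, 11.74 and 12.17 in the controls and from 11.39 to 11.80 (median 11.66) in the mutants. Again 5 mutants lay below all controls, and mutant 5 was within their range. Here the log2 fold change was -0.25 (SE 0.09, unadjusted p = 0.021 in limma, exact permutation p = 0.017). Mrps12 was the only member with both detected probes lower at this threshold, and it went against the direction of most of the set. The first probe kept its call under all 19 alternatives, with fold changes of -0.55 to -0.39. The second lost it without control 5 and when only detected probes were fitted.

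Among the large subunit genes Mrpl47, the mitochondrial relative of bacterial L29 near the exit of the polypeptide tunnel, was higher in the mutants. Its brightest probe read 9.37, 9.06, 9.06, 9.18 and 9.22 in the controls and from 9.13 to 9.69 (median 9.55) in the mutants. Only mutant 3 lay within the range of the controls. The difference was 0.33 on the log2 scale (SE 0.10), or 25.6% more signal, with an unadjusted p of 0.0077 in limma and 0.017 in the exact permutation test. A second detected probe gave 0.20, and 2 more were not above background.

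Mrpl40, a protein particular to mitochondria in the central protuberance of the large subunit, read 9.56, 9.39, 9.48, 9.36 and 9.65 in the controls. The mutants ran from 9.58 to 9.97 (median 9.72). All mutants lay above 4 of the controls, and control 5 overlapped the lowest of them. This gave a log2 fold change of 0.25 (SE 0.08), or 19.3% more signal, with an unadjusted p of 0.0090 in limma and 0.0087 in the exact permutation test, where 0.00433 is the smallest p these group sizes allow.

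Mrpl42, also particular to mitochondria, showed the largest difference of the large subunit among brightest probes. It read 9.72, 9.43, 9.49, 10.01 and 10.14 in the controls and from 9.72 to 10.60 (median 10.26) in the mutants. All controls lay below 5 of the mutants, but mutant 3 was at the level of control 1. The log2 fold change was 0.47 (SE 0.17), or 38.7% more signal, with an unadjusted p of 0.017 in limma and 0.030 in the exact permutation test.

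Mrps31, a small subunit protein particular to mitochondria, had 3 detected probes with similar positive values. Its brightest probe read 10.56, 10.28, 10.42, 10.33 and 10.51 in the controls and from 10.48 to 10.79 (median 10.70) in the mutants. All controls lay below 4 of the mutants, and mutants 2 and 3 overlapped them. On the log2 scale the difference was 0.23 (SE 0.07), or 17.6% more signal, with an unadjusted p of 0.0095 in limma and 0.022 in the exact permutation test. The other detected probes of Mrps31 gave 0.21 (SE 0.11) and 0.21 (SE 0.11), with unadjusted p of 0.073 and 0.078 in limma. The call of the brightest probe was lost without control 4, mutant 2 and mutant 4.

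Mrps24, related to bacterial S3 at the mRNA entry site, read 12.27, 12.09, 12.33, 12.15 and 12.41 in the controls and from 12.28 to 12.63 (median 12.43) in the mutants. All controls lay below 3 of the mutants, and the other mutants overlapped them. The log2 fold change was 0.19 (SE 0.08), or 14.0% more signal, with an unadjusted p of 0.038 in limma and 0.043 in the exact permutation test. The call was lost in 8 of 19 alternatives, among them a block for the series of animal numbers, the fit of detected probes alone and those without control 1, control 2, control 4, mutant 1, mutant 2 or mutant 5, with a range of 0.15 to 0.23.

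Among the animals whose numbers start with 2 and with 3, the latter with 1 control, these probes gave unequal values. They were -0.27 and -0.75 for the first Mrps12 probe, -0.13 and -0.59 for the second, 0.26 and 0.36 for Mrpl47, 0.23 and 0.16 for Mrpl40, 0.18 and 0.22 for Mrps31, 0.50 and 0.16 for Mrpl42, and 0.24 and 0.02 for Mrps24. All 7 kept their direction in both series. They were picked for a difference over these same animals, so a shared direction is partly built in. The difference between the series was not tested.

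**Figure D3:**
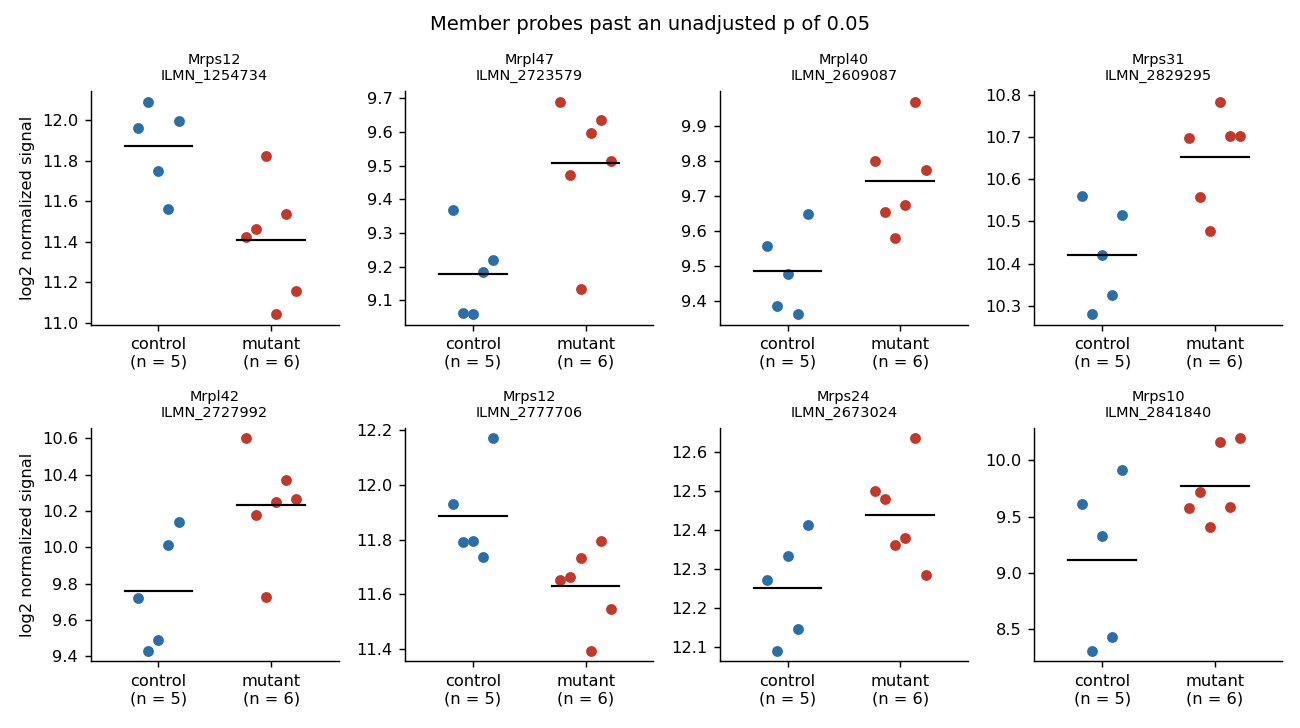
Log2 normalized signal (y axis, not starting at 0) of the 8 member probes past an unadjusted p of 0.05 in 5 controls (blue) and 6 mutants (red), 1 point an animal, with a line at each group mean. In every panel at least 1 animal of one genotype lies within the range of the other, and both Mrps12 probes are lower in the mutants.

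Mrps10, related to bacterial S10 in the head of the small subunit, gave different answers depending on the probe. ILMN_2841840 read 9.61, 8.31, 9.33, 8.43 and 9.91 in the controls and from 9.41 to 10.20 (median 9.65) in the mutants. Controls 2 and 4 were far below the rest, and the other controls lay close to or within the range of the mutants. The log2 fold change was 0.66 (SE 0.29), with an unadjusted p of 0.048 in limma and 0.091 in the exact permutation test. The call was lost in 10 of 19 alternatives, among them a block for the series of animal numbers and those without control 2, control 3, control 4, mutant 1, mutant 2, mutant 4, mutant 5 or mutant 6. ILMN_2691360 gave 0.37 (SE 0.22) with the same 2 controls lowest, at 7.47 and 7.12. ILMN_2769630 gave -0.30 (SE 0.33) in the opposite direction, reading 9.68, 10.07, 9.58, 10.22 and 8.58 in the controls and from 8.61 to 9.92 (median 9.56) in the mutants. On that probe controls 2 and 4 were the highest animals, and control 5, mutant 4 and mutant 6, the highest on the first probe, were the lowest at 8.58, 8.63 and 8.61. The plot of the 3 probes by animal shows this mirror pattern, and no single level can be given for the gene.

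**Figure D4:**
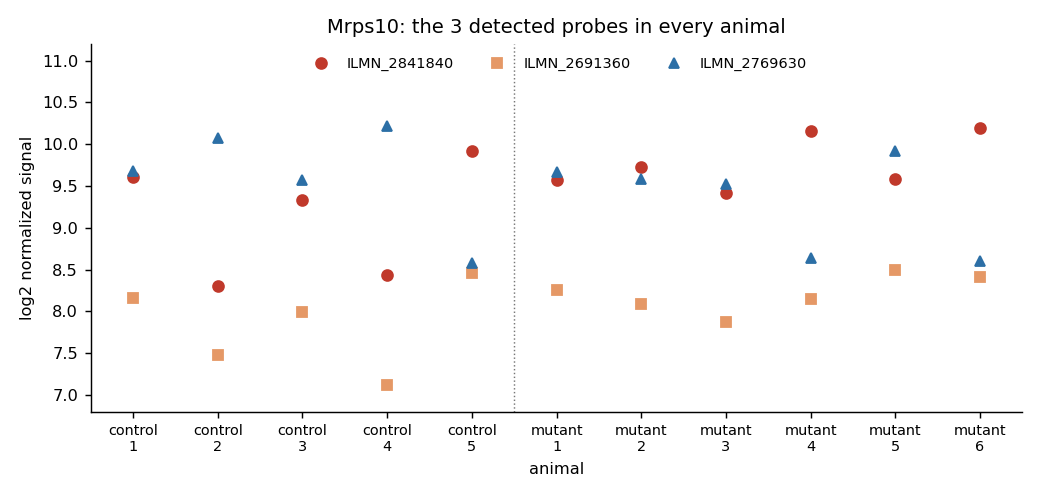
Log2 normalized signal (y axis, not starting at 0) of the 3 detected Mrps10 probes in each of 11 animals (x axis, controls left of the dotted line). ILMN_2841840 and ILMN_2691360 are low in controls 2 and 4, where ILMN_2769630 is high, and the order is turned in control 5, mutant 4 and mutant 6 between the first and the last.

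At their brightest probes, the 3 genes of each subunit next in order of p were positive and did not pass the threshold in the comparison without a block. In the large subunit these were Mrpl1, related to bacterial L1, at 0.23 (SE 0.12), the peptidyl-tRNA hydrolase Mrpl58, which releases chains from stalled ribosomes, at 0.24 (SE 0.12), and Mrpl2 near the peptidyl transferase centre at 0.26 (SE 0.13), with unadjusted p of 0.074, 0.075 and 0.076 in limma. In the small subunit they were Mrps18b at 0.27 (SE 0.14), Mrps16, related to bacterial S16, at 0.27 (SE 0.15), and Mrps22, particular to mitochondria, at 0.21 (SE 0.11), with unadjusted p of 0.085, 0.086 and 0.087. With a block for the series of animal numbers Mrpl1 passed the threshold, at 0.30. Dimmer probes of other genes with p in this range included negative ones, at -0.27 (SE 0.13) for Mrpl15, -0.27 (SE 0.13) for Mrps5 and -0.26 (SE 0.12) for Mrpl20, of which only that of Mrpl15 was detected in at least 5 animals. Mrpl2 illustrates the overlap, with 10.52, 9.91, 10.25, 10.37 and 10.49 in the controls and 10.23 to 10.78 (median 10.62) in the mutants. All controls lay below 4 of the mutants, and mutants 3 and 4 overlapped them.

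Structural classes of members had similar medians, and the difference between them was not tested. Genes with a bacterial homolog had a median of 0.08 in the large (25 of 30 positive) and 0.10 in the small subunit (11 of 16), and those particular to mitochondria 0.09 (14 of 18) and 0.09 (10 of 12). The 5 genes around the peptidyl transferase centre were all positive, with a median of 0.05. Of 6 genes at the exit tunnel 5 were positive (median 0.03), and of 6 in the central protuberance 4 (median 0.04). The negative gene at the exit tunnel, Mrpl45, was not above background. Of the 3 genes of the L7/L12 stalk and its base, Mrpl11 was at -0.13 (SE 0.17), Mrpl10 at -0.03 (SE 0.08) and Mrpl12 at 0.10 (SE 0.09). Mrps18a and Mrps30, whose proteins are known to sit in the large subunit despite their names, were at 0.11 (SE 0.12) and 0.03 (SE 0.07). Of the 14 genes above background with a negative value only Mrps12 passed the unadjusted threshold. The next, Mrpl55, was at -0.18 (SE 0.13).

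Agreement between probes of one gene was limited at this size of difference. Of the 26 genes with at least 2 probes detected in 5 or more animals, 15 had all probes on the same side of 0 and 11 did not. Mrpl51 had probes from -0.24 to 0.52 and Mrpl15 from -0.27 to 0.16, while the probes of Mrps18b (0.13 to 0.27), Mrpl13 (0.18 to 0.35) and Mrps26 (0.09 to 0.11) had one sign. All probes were negative for Mrps12 (-0.47 to -0.25), Mrpl48 (-0.29 to -0.10) and Mrps33 (-0.10 to -0.02). For the rest of the 15 genes they were positive. Probes of a gene can read different transcripts, and their sequences were not used here.

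The neighbouring gene groups shifted less. Among 60 cytosolic ribosomal protein genes 34 were positive with a median of 0.01, and none passed an unadjusted p of 0.05. Among 80 nuclear-encoded respiratory chain genes 48 were positive with a median of 0.02, with 1 higher and 1 lower at that threshold. The medians were 0.03 for 24 factors of mitoribosome assembly and rRNA modification, 0.02 for 17 mitochondrial translation factors, 0.04 for 21 mitochondrial aminoacyl-tRNA synthetases and 0.02 for 26 genes of mitochondrial transcription and RNA processing. The difference of these medians from those of the ribosomal protein genes was not tested. The respiratory chain genes followed a similar order of animals, with mutant 5 highest (0.21), control 5 next (0.14) and control 2 lowest (-0.14).

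**Figure D5:**
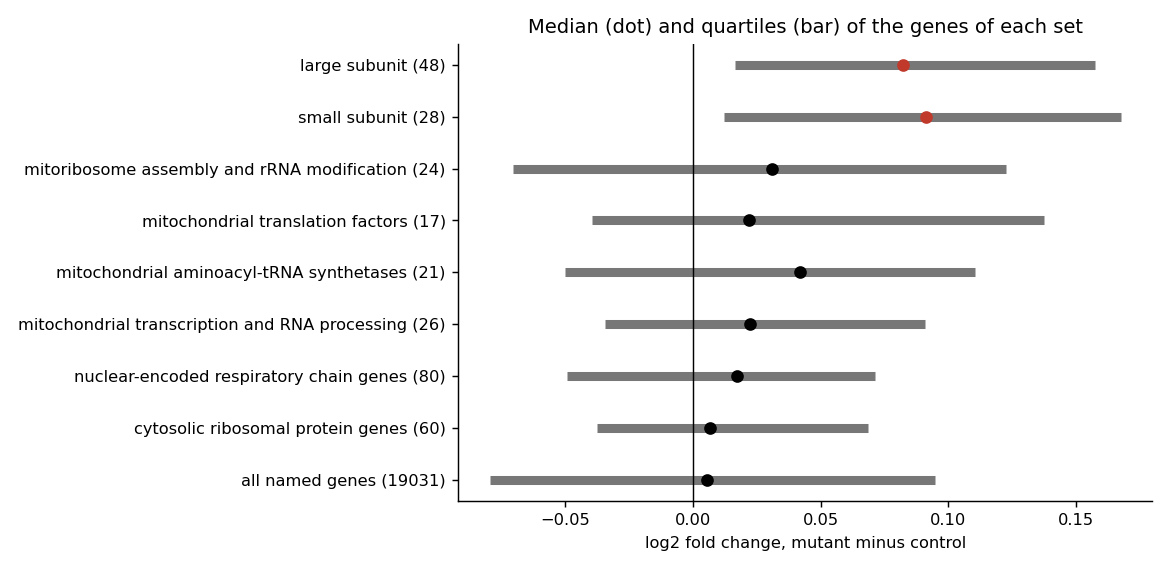
Median (dot) and quartiles (bar) of the log2 fold change, mutant minus control (x axis), over the genes of each set, with the number of genes in brackets. The medians of the large (0.08) and small (0.09) subunit lie to the right of those of the other mitochondrial sets, the cytosolic ribosomal proteins (0.01) and all named genes (0.01).

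Within the wider mitochondrial translation machinery a few single genes passed an unadjusted p of 0.05 in limma. Among the 11359 named genes above background, 352 were higher and 250 lower at that threshold. Mrm1, a methyltransferase of the mitochondrial large subunit rRNA, had the clearest difference, at 8.13, 7.78, 7.92, 7.84 and 7.82 in the controls and from 8.15 to 8.63 (median 8.35) in the mutants. Every mutant lay above every control, by little between control 1 and mutant 3. The log2 fold change was 0.46 (SE 0.10), with an unadjusted p of 0.00068 and an adjusted p of 0.996 in limma. Mettl17, a factor of small subunit assembly, was higher by 0.24 (SE 0.09, unadjusted p = 0.020, limma), and these were the only 2 of 24 assembly and rRNA modification genes past the threshold. Of 4 mitoribosome proteins that do not carry an Mrp symbol, the small subunit protein Chchd1 was higher, at 12.69, 12.34, 12.32, 12.47 and 12.52 in the controls and from 12.56 to 12.80 (median 12.72) in the mutants. Only control 1 lay within the range of the mutants, and the log2 fold change was 0.24 (SE 0.08, unadjusted p = 0.0089, limma). The large subunit protein Gadd45gip1 read 7.30, 6.49, 6.495, 6.93 and 4.89 in the controls and from 4.99 to 6.999 (median 5.07) in the mutants. Its animals fell into a high set of controls 1 to 4 and mutant 3 and a low set of control 5 and the other mutants, and the log2 fold change was -1.05 (SE 0.47, unadjusted p = 0.045, limma), while the exact permutation p was 0.11. Fastkd5, needed for processing of mitochondrial transcripts, was lower by 0.21 (log2 fold change -0.21, SE 0.09, unadjusted p = 0.040, limma) and was the only one of 26 genes of mitochondrial transcription and RNA processing past the threshold. In that list Nrf1, a transcription factor of nuclear genes for mitochondrial proteins, was at 0.18 (SE 0.10), and the mitochondrial RNA polymerase Polrmt at 0.09 (SE 0.11). Among translation factors Mtif2, an initiation factor, was at -0.16 (SE 0.08) and Mtrf1, a release factor family member, at 0.25 (SE 0.15). Among the synthetases Nars2, which charges asparagine tRNA, was at -0.42 (SE 0.24) and the isoleucine enzyme Iars2 at -0.12 (SE 0.07). None of these 6 passed the unadjusted threshold.

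Promoter sequences were not used in the choice by name. RefSeq windows from 250 bases before to 50 after the annotated start (GRCm38.p6) were matched for 67 of the 76 genes, and 4 motifs were searched on both strands. The letters GCGCANGCG, a core of the NRF-1 site, were in 23.9% of the member windows and in 8.83% of 17492 protein-coding windows. CCGGAAG, bound by ETS factors such as GABP, was in 37.3% against 11.9%, and AAGATGGCG, bound by YY1, in 11.9% against 1.94%. The CCAAT box of NF-Y, which was added after the sequence of the Mrps12 promoter had been read, was in 37.3% against 39%. At least 1 of the first 3 motifs was in 41 of the 67 windows (61.2%) against 20.3% of the protein-coding windows, and 26 member windows held none. A match of letters is not evidence that a factor binds. The windows of Mrpl40 and Mrpl47 held none of the 4, and that of Mrps12 held 4 CCAAT and 1 ETS match. Those of Mrpl42 and Mrps24 held 1 YY1 match each, and those of Mrpl42, Mrps10 and Mrps31 held 1 CCAAT match each.

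In 23 of the 67 genes (34.3%) another gene started on the opposite strand within 500 bases, against 11.7% of protein-coding genes. Such pairs share the stretch between their starts, so the value of the neighbour is given beside that of the member. The stretches of the 2 called genes with the shortest distance to such a neighbour are shown first, Mrps12 with the mitochondrial seryl-tRNA synthetase Sars2 and Mrpl40 with the histone chaperone Hira. They are followed by that of 2 members, Mrpl46 and Mrps11, and by examples with ETS and NRF-1 matches. Each is written from the neighbour's start to the member's start on the member's strand, from RefSeq, with motif matches on either strand in capitals.
Mrps12 and Sars2, chr7:28741822-28741967, minus strand, CCAAT in capitals: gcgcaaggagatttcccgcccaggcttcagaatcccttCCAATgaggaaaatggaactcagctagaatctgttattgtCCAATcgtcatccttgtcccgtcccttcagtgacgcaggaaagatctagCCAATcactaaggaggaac
Mrpl40 and Hira, chr16:18876638-18876749, minus strand, no match: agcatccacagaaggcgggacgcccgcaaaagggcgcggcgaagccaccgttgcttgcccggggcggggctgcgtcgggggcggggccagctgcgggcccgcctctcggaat
Mrpl46 and Mrps11, chr7:78783090-78783130, minus strand, no match: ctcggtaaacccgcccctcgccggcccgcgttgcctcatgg
Mrpl43 and Twnk, chr19:45006443-45006557, minus strand, ETS in capitals: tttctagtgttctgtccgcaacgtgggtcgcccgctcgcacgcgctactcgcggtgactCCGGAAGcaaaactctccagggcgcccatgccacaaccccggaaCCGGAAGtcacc
Mrpl57 and Ska3, chr14:57826164-57826238, plus strand, NRF-1 in capitals: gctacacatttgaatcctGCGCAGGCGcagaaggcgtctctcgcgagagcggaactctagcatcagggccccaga

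The signs of members and neighbours were mixed. The start of Sars2 lies 147 bases from that of Mrps12, across the 146 bases with 3 CCAAT boxes. Sars2 was at 0.09 (SE 0.14) where Mrps12 was at -0.25 (SE 0.09). Hira, 113 bases from Mrpl40, was at -0.35 (SE 0.18) where Mrpl40 was at 0.25 (SE 0.08). Ndufb5, a respiratory chain subunit 308 bases from Mrpl47, was at 0.12 (SE 0.15) beside 0.33 (SE 0.10). Mrpl46 and Mrps11, which are 42 bases apart and belong to different subunits, were at 0.08 (SE 0.08) and 0.08 (SE 0.13). Mrpl43 and the mitochondrial helicase Twnk, 116 bases apart, were at 0.08 (SE 0.10) and -0.06 (SE 0.14), and Mrpl57 was at 0.13 (SE 0.17) with Ska3 detected in 2 animals only. Counting Mrpl46 and Mrps11 once, 9 of the 19 pairs with both genes named on the array had the same sign, and 1 neighbour, Cyb5rl beside Mrpl37, passed an unadjusted p of 0.05 with 0.33 (SE 0.09) where Mrpl37 was at 0.02 (SE 0.09). Several pairs of opposite sign rest on a gene at background. These are Mrpl21 with Ighmbp2 (detected in 1 animal), Mrpl57 with Ska3, Mrps26 with 4930473A02Rik (0 animals), and Mrpl32, itself at background, with Psma2. The differences within pairs were not tested.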

How the data were processed

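Total RNA from hippocampal sections was hybridised to 12 arrays of 11 animals. The authors deposited an intensity per probe on a linear scale, not background-corrected or scaled, with a detection p-value beside each. The authors also deposited log2 values of the same arrays, made per the methods by quality control with BeadArray, background subtraction, quantile normalization and log2 transformation. The submitters' processing notes name limma, whose version is not given in the sources used here.

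Of 46089 lines, 954 carry no probe name and were left out. Of 45135 probes, 34773 have 1 gene symbol in the platform annotation, 18 several and 10344 none. In R 4.3.3 with limma 3.58.1, background was corrected by normexp from the detection p-values (neqc, offset 16), followed by quantile normalization and log2. The 2 arrays of mutant 6 were averaged. Mutant minus control was fitted with lmFit and eBayes (2.12 prior degrees of freedom), p-values were adjusted by Benjamini-Hochberg over all probes, and single probes were also tested by an exact two-sided permutation test. The number of animals limits the precision. A gene is represented by its brightest probe.

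Genes named are member probes at an unadjusted p under 0.05, the next 3 genes of each subunit by p, other probes of a member where signs disagree, and from each mitochondrial list the members past that p or else the first 2. Tissue marker lists are given by counts. Nrf1, Polrmt and genes of shared promoters were named outside this rule, with their values seen. So were genes given as examples of structural classes, negative values, dimmer probes, probe agreement and low detection. The members and lists were chosen with earlier results of these data known. The steps were tested on simulated data. Alternatives were no background correction, a filter on detected probes, the deposited log2 values, cyclic loess, a replicate block, a block for the animal number series, each animal or array of mutant 6 left out, other gene summaries, and, chosen after seeing the data, leaving out 3 animals with thalamus markers.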

Additional observations from a re-analysis of the deposited data

Results flagged for a closer look

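Among the 46 groups of 5 or 6 animals checked, 2 held an animal far from the others, where chance flags about 1 in 20 groups. For Mrps16 (ILMN_2619671) mutant 5 was at 9.92 in log2 signal with the next mutant at 9.43, a gap of 0.64 of the range of the group. Mutant 5 was also the highest animal in the mean of both subunits. For Gadd45gip1 (ILMN_1240677) mutant 3 was at 6.999 with the next mutant at 5.08, a gap of 0.95 of the range, while controls 1 to 4 lay near the level of mutant 3. What set these animals apart was not tested.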

How the results depend on the processing

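Under every alternative run no member passed an adjusted p under 0.05, and the medians of both subunits were positive. They moved by less than the SD between controls (0.11 and 0.13). That SD is larger than the medians themselves (0.08 and 0.09), so this limit could not have flagged a loss of the shift. Within the animals whose numbers start with 3, with 1 control, the medians were negative (-0.07 and -0.04). Counts at an unadjusted p under 0.05 moved more. The higher probes went from 6 to 14 and the lower ones from 2 to 4 under the replicate block, and the lower ones to 5 under cyclic loess, 5 with a block for the series of animal numbers, 4 with only the first array of mutant 6 and 1 among detected probes only. Leaving out 1 animal gave 4 to 17 higher probes, 2 to 5 lower probes and 0 to 1 at an unadjusted p under 0.001. The replicate block leaves mutant 6 without a partner, so that fit rests on 5 pairs of same-numbered animals. Same-numbered animals correlated at 0.26, -0.05, -0.05, 0.56 and 0.54 in their deviations from the group means, and for controls 1, 4 and 5, but not 2 and 3, the same-numbered mutant correlated best. Control 4 and mutant 4 have animal numbers that start with 2 and with 3, so a shared replicate number does not always mean the same number series. Within each genotype the replicate numbers follow the order of the animal numbers, so a shared number does not by itself mark paired animals. Not every same-numbered pair correlated. Under the block Mrpl1 (0.26), Mrps16 (0.27), Mrps22 (0.20) and Mrps18b (0.24) passed an unadjusted p of 0.05 and Mrps10 (0.57) did not. No named probe changed sign under these alternatives, but among the animals whose numbers start with 3, Mrpl58 (-0.12), Mrps16 (-0.01) and Mrps10 (-0.10 and 0.48 at its other probes) did. For 4 genes no probe was well enough above background. The cause of these changes was not tested.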
